A study of Sus scrofa with 20 samples.

Results

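Bile acids are made from cholesterol in hepatocytes, conjugated, and pumped into bile. CYP7A1 is the rate-limiting enzyme of the classical synthesis route, CYP8B1 sets the balance of the bile acids formed, and CYP27A1 oxidises the sterol side chain. BAAT attaches glycine or taurine, and ABCB11 (the bile salt export pump) carries the conjugates across the canalicular membrane. NR0B2 (SHP) is a nuclear receptor without a DNA-binding domain. It is induced when bile acids activate NR1H4 (FXR), and it represses transcription of CYP7A1, whereas ABCB11 is itself an induced target of NR1H4.

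These 6 genes were looked up by symbol among the 21755 reference IDs of the RNA-Seq count tables, of which 6664 could be given a symbol. A reference ID was matched for 3 of the 6, namely CYP7A1 (NM_001005352.2), NR0B2 (XM_003127720.1) and ABCB11 (XM_003133457.1), with 1 ID each. CYP8B1, CYP27A1 and BAAT were not analysed here. All 3 matched genes passed the filter on low counts in liver (at least 10 counts summed over its samples), and CYP7A1 and NR0B2 passed it in testis, where ABCB11 was left out of the test.

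The counts came from testis and liver of Duroc x F2 cross boars aged 116 days per the labels, the F2 parents having been bred from Leicoma, German Landrace and Large White. Groups were set by the androstenone level in fat, with 5 low and 5 high samples in each tissue, 20 libraries in all and no pooling. Whole tissue was sequenced. In whole tissue, a lower count from fewer cells of a type and one from less RNA per cell cannot be told apart. The labels number the samples 1 to 5 in every group and do not link a testis to a liver. Both tissues came from the same 10 boars, while the p-values between tissues below treat the 20 samples as independent.

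The testis libraries held between 6161397 and 15975386 counts and the liver libraries between 5796973 and 26783002. Levels below are counts per 1000000 (CPM) normalised by TMM within a tissue, and values are not compared between genes because transcript lengths were not used. At these depths 3 counts, taken as the floor for counting error, equal at most 0.487 CPM in a testis and at most 0.518 CPM in a liver library. The tissue labels were checked with defining markers. The summed level of 7 hepatocyte markers was 75411 to 197396 CPM over the livers and 49.5 to 170.2 CPM over the testes, while 7 testis cell markers summed to 2834 to 7240 CPM in testis and 8.90 to 157.5 CPM in liver.

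CYP7A1 was the most uneven of the 3 genes between livers. In the low androstenone livers its level was 3.13, 68.1, 0.539, 2.46 and 25.0 CPM in replicates 1 to 5. In the high androstenone livers it was 2.69, 0.761, 0.201, 22.1 and 0.704 CPM. Low replicates 2 and 5 and high replicate 4 stood above the other 7 livers, and the groups overlapped over most of their range. The lowest values rest on few reads: low replicate 3 and high replicates 2 and 5 had 5 counts each and high replicate 3 had 4, against 1367 in low replicate 2. Before normalisation by TMM, the exact 95% binomial interval was 0.0407 to 0.382 CPM in high replicate 3 and 62.4 to 69.4 CPM in low replicate 2. These intervals cover counting error only.

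The highest liver exceeded the lowest 339-fold for CYP7A1, 11.4-fold for NR0B2 and 5.88-fold for ABCB11. On log2(CPM + 0.5), the SD over the 10 livers was 2.27 for CYP7A1, 0.99 for NR0B2 and 0.82 for ABCB11. The median SD over the 11444 IDs with a mean of at least 1 CPM in liver was 0.50. Of these IDs, 5 had a larger SD than CYP7A1, 584 a larger SD than NR0B2 and 1392 a larger SD than ABCB11. In the low androstenone group, low replicate 2 alone carried 68.7% of the summed CYP7A1 level, and in the high group replicate 4 carried 83.5%.

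NR0B2, the repressor, was well covered in every liver, with at least 337 counts. Its level was 122, 23.1, 201, 95.7 and 178 CPM in the low androstenone livers. It was 102, 139.6, 263, 57.7 and 101 CPM in the high androstenone livers. The lowest values were those of low replicate 2 and high replicate 4, which were among the 3 livers with the highest CYP7A1 level, and the highest value was that of high replicate 3, which had the lowest CYP7A1 level.

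ABCB11, the exporter, had at least 518 counts in every liver. Its level was 187, 322, 80.2, 127 and 152 CPM in the low and 175, 78.9, 54.9, 302 and 136 CPM in the high androstenone livers. Low replicate 2 and high replicate 4 were highest and high replicate 3 was lowest, the same extremes as for CYP7A1 apart from low replicate 5.

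**Figure D1:**
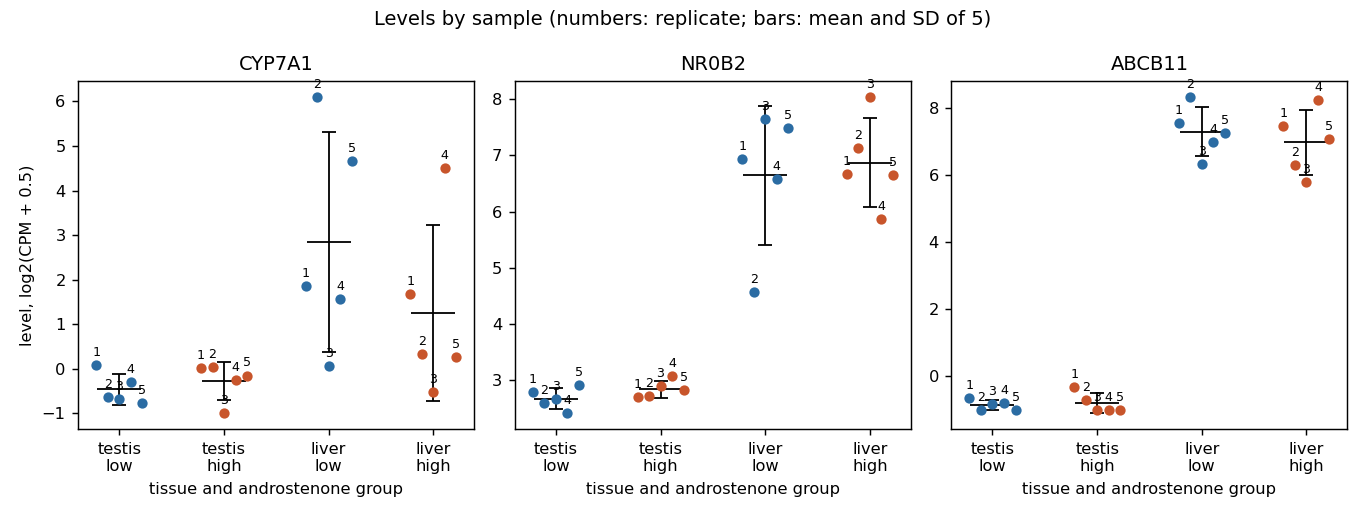
Level of CYP7A1, NR0B2 and ABCB11 on the log2(CPM + 0.5) scale (vertical axis, a separate scale for each gene) in each of the 20 samples, by tissue and androstenone group. Points are samples with their replicate number, and bars are the mean and SD of 5. CYP7A1 spreads most in liver (SD 2.27 over 10 livers), and high and low androstenone samples overlap for each gene in each tissue.

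The androstenone groups were compared in liver with edgeR's quasi-likelihood test, with Benjamini-Hochberg adjustment over the 15855 IDs tested. Called genes had to change at least 1.5-fold with an adjusted p below 0.05. The mean CYP7A1 level was 19.8 ± 28.8 CPM (SD, n = 5) in the low and 5.29 ± 9.44 CPM (SD, n = 5) in the high group. The log2 fold change, high minus low, was -1.98 with an SE of 1.21 (edgeR adjusted p = 0.9998). The study, using DESeq, had listed CYP7A1 as lower in high androstenone liver from the same samples, so its choice is not independent of these data. The study also reported qRT-PCR for CYP7A1 that went the same way in these samples, with a similar pattern in other boars. NR0B2 had 124 ± 70.5 CPM (SD, n = 5) in the low and 133 ± 78.6 CPM (SD, n = 5) in the high group, with a log2 fold change of 0.10 and an SE of 0.50. ABCB11 had 174 ± 91.7 CPM (SD, n = 5) in the low and 149 ± 97.6 CPM (SD, n = 5) in the high group, with a log2 fold change of -0.22 and an SE of 0.46. The edgeR adjusted p was 0.9998 for each, and each mean difference was smaller than the SD of the low group. None of the 3 was called, and of all IDs tested in liver 0% were called, 2.93% having an unadjusted p under 0.05.

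Compared by exact permutation, two-sided and on log2(CPM + 0.5), 5 livers against 5 gave p = 0.286 for CYP7A1, p = 0.746 for NR0B2 and p = 0.54 for ABCB11. The smallest p this design allows is 0.00794, and adjusted over the 6 tests of 3 genes in 2 tissues the values ranged from 0.81 to 0.841 (exact permutation tests).

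The CYP7A1 difference depended on single livers. Without low replicate 2 the log2 fold change was -0.62 (edgeR adjusted p = 0.9998), and without high replicate 4 it was -4.15 (edgeR adjusted p = 0.9387). Unadjusted, the edgeR p for CYP7A1 was 0.122 with all 10 livers and ranged from 0.00379 to 0.593 with 1 liver left out. When the dispersion was set by the trend with expression level alone, leaving out the spread of the gene itself, the likelihood ratio test gave an edgeR adjusted p of 0.001157 for the same log2 fold change of -1.98. Over the other alternatives the edgeR or DESeq2 adjusted p for CYP7A1 lay between 0.8317 and 1. The sign for NR0B2 turned without low replicate 2 (log2 fold change -0.17) and without high replicate 3 (-0.31), and that for ABCB11 turned without low replicate 2 (0.13).

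**Figure D2:**
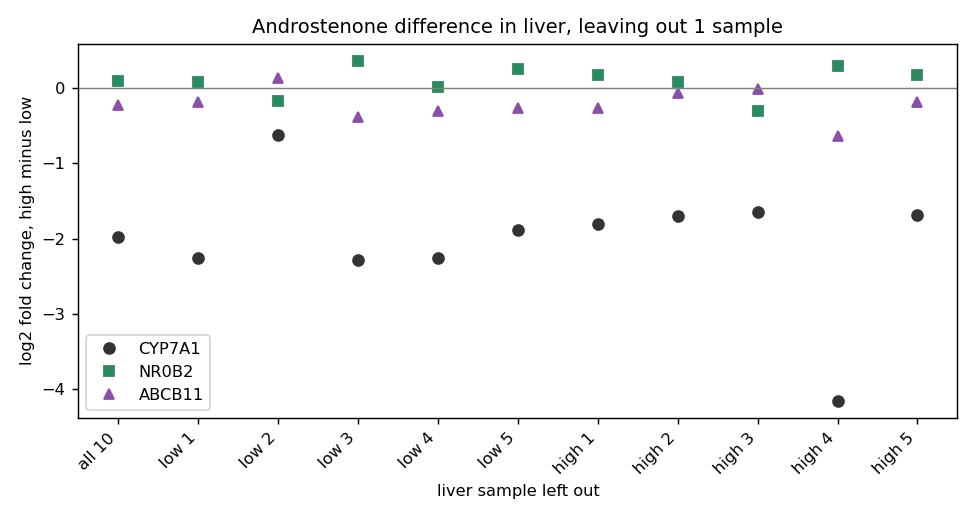
Log2 fold change of CYP7A1 (circles), NR0B2 (squares) and ABCB11 (triangles) in liver, high minus low androstenone, with all 10 livers and with each liver left out in turn (horizontal axis). CYP7A1 moves between -4.15 and -0.62, while NR0B2 and ABCB11 lie on both sides of 0.

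Across the 10 livers the 3 genes varied together, whatever the androstenone group. The relations are Pearson's r and Spearman's rho on log2(CPM + 0.5), with permutation p-values from 100000 resamples and adjustment over the 3 pairs. CYP7A1 and ABCB11 rose and fell together, with r = 0.85 (permutation p = 0.0021, adjusted p = 0.00315) and rho = 0.87 (permutation p = 0.00226, adjusted p = 0.00678). NR0B2 and ABCB11 moved in opposite directions, with r = -0.85 (permutation p = 0.00119, adjusted p = 0.00315) and rho = -0.73 (permutation p = 0.0202, adjusted p = 0.0303). CYP7A1 and NR0B2 were also opposed by Pearson's r, at -0.73 (permutation p = 0.0142, adjusted p = 0.0142), but rho was -0.60 and did not pass 0.05 (permutation p = 0.0727, adjusted p = 0.0727). Such relations were common among all genes. Of 11443 other IDs with a mean of at least 1 CPM in liver, 13.9% had an r with CYP7A1 at an unadjusted permutation p under 0.05, 32.2% had one with NR0B2 and 40.6% had one with ABCB11. Relations of this kind were thus not particular to the 3 genes.

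The 2 livers farthest from the median of the first gene were then left out. The r was 0.91 for CYP7A1 with ABCB11 and -0.86 for CYP7A1 with NR0B2, both without low replicates 2 and 5, and rho for the latter pair was -0.71 and again did not pass 0.05 (permutation p = 0.0571). It was -0.74 for NR0B2 with ABCB11 without low replicate 2 and high replicate 3 (permutation p = 0.0359), where rho fell to -0.48 (permutation p = 0.242). Leaving out low replicate 2 alone brought r for CYP7A1 with NR0B2 to -0.48 (permutation p = 0.189). With low replicate 5 left out instead, a liver with high levels of both genes, it was -0.94. Without high replicate 3, which stands apart below, r was 0.83 for CYP7A1 with ABCB11, -0.80 for NR0B2 with ABCB11 and -0.67 for CYP7A1 with NR0B2.

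Removing the means of the androstenone groups left the values at 0.85, -0.85 and -0.74 for CYP7A1 with ABCB11, NR0B2 with ABCB11 and CYP7A1 with NR0B2. Groups of 5 were too few for an r within a group. With the log2 total count regressed out of both genes, r was 0.88, -0.85 and -0.75 in the same order. The levels themselves had r with the log2 total count of 0.19 for CYP7A1, 0.07 for NR0B2 and -0.06 for ABCB11 (permutation p = 0.6, 0.855 and 0.864). The labels give no batch, and name 1 flow-cell with a lane for each sample in a first sequencing run.

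**Figure D3:**
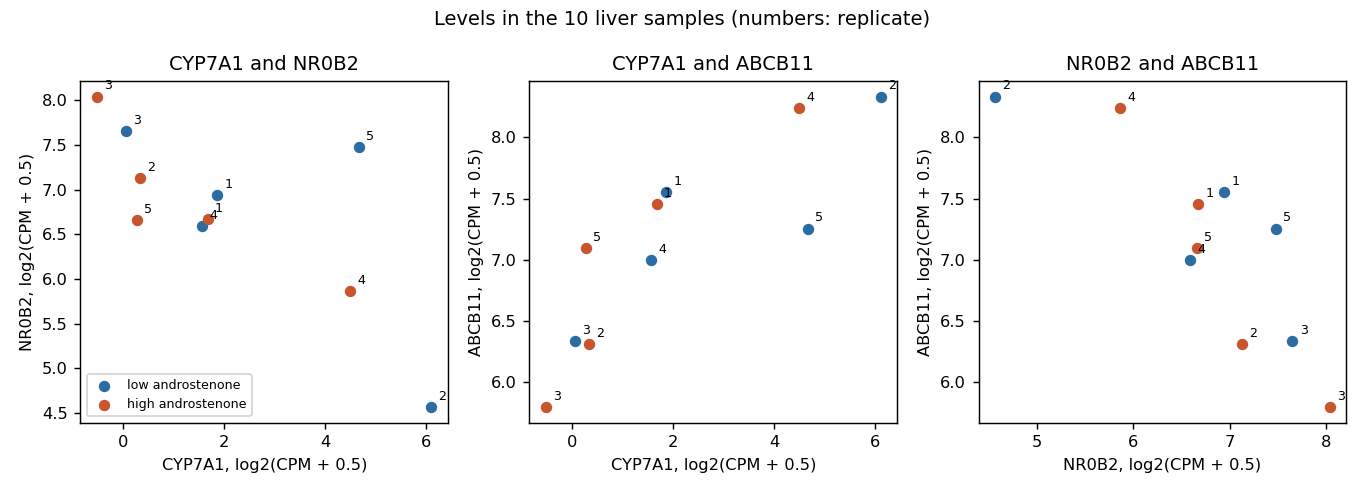
Levels of each pair of CYP7A1, NR0B2 and ABCB11 in the 10 livers, both axes as log2(CPM + 0.5). Points are livers with their replicate number, coloured by androstenone group. CYP7A1 and ABCB11 follow each other (r = 0.85), NR0B2 runs against ABCB11 (r = -0.85), with livers of both groups near each end.

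Ratios of counts within a library do not depend on the normalisation, and the same livers stood at their extremes. There were 0.339 NR0B2 reads for each CYP7A1 read in low replicate 2 and 2.61 in high replicate 4. The ratio was 7.13 in low replicate 5, 39.1 in low replicate 1, 38.8 in low replicate 4 and 37.8 in high replicate 1. It rose to 143 in high replicate 5, 183 in high replicate 2, 373 in low replicate 3 and 1309 in high replicate 3. These last ratios divide by only 5, 5, 5 and 4 CYP7A1 reads, so their sizes and order are imprecise. ABCB11 reads for each NR0B2 read went from 0.209 in high replicate 3 to 13.9 in low replicate 2, with 5.24 in high replicate 4 as the second highest. Both androstenone groups thus held livers near each end.

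None of the summed marker lists had a relation with the 3 genes that passed the adjustment. The summed hepatocyte markers had r = 0.18 with CYP7A1, 0.32 with NR0B2 and -0.32 with ABCB11 (permutation p = 0.619, 0.373 and 0.367). For 4 cholangiocyte markers, which summed to 6.40 to 18.4 CPM over the livers, r was -0.30, 0.04 and 0.09. For 12 blood and leukocyte IDs, which summed to 1218 to 10414 CPM, it was 0.09, 0.17 and -0.31. The summed acute phase and stress genes, at 19551 to 82767 CPM, had r = 0.64 with NR0B2 (permutation p = 0.0482, adjusted p = 0.279) and -0.55 with ABCB11 (permutation p = 0.0993, adjusted p = 0.447). Without the 2 livers farthest from the median of each gene these were 0.21 and 0.00. These adjusted values cover 81 relations, which also hold the pathway genes below, and this set was chosen after the data were seen.

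Of the other genes of the pathway, 21 had a mean of at least 1 CPM in liver, and none passed the adjustment with any of the 3 by Pearson's r or Spearman's rho. Unadjusted, 1 of 21 had a permutation p under 0.05 with CYP7A1, 6 with NR0B2 and 6 with ABCB11, shares below the 13.9%, 32.2% and 40.6% of all IDs. NR1H4, the bile acid receptor, had r = 0.65 with NR0B2 (permutation p = 0.0373, adjusted p = 0.232) and -0.68 with ABCB11 (permutation p = 0.0329, adjusted p = 0.222). HSD3B7, an early enzyme of sterol ring modification, had r = 0.72 with NR0B2 and -0.80 with ABCB11 (adjusted permutation p = 0.222 for both). SCP2, a peroxisomal enzyme of side chain shortening, had r = 0.70 with NR0B2 and -0.72 with ABCB11 (adjusted permutation p = 0.222 for both). NR1I3 (CAR), a xenobiotic receptor, was the gene with the largest r with CYP7A1, at 0.70 (permutation p = 0.0238, adjusted p = 0.222).

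The genes most like each of the 3 over the 10 livers were ranked by Spearman's rho among 2127 IDs with a symbol and a mean of at least 10 CPM, as a description. For CYP7A1 they were CLEC2D (rho 0.94), TRMT112 (rho 0.90) and ZCCHC6 (rho 0.89). The livers with 4 or 5 CYP7A1 counts had overlapping binomial intervals. Their order, on which every rho with CYP7A1 partly rests, is thus within counting error. For NR0B2 they were C1H9orf78 (rho 0.99), CLDN4 (rho 0.96) and CYP2C33 (rho 0.96), and for ABCB11 they were BCLAF1, CACNA2D1 and GABARAPL1 (rho 0.95 each). A rho of at least 0.8 was found for 19 IDs with CYP7A1 (0.893% of the 2127), for 217 with NR0B2 (10.2%) and for 101 with ABCB11 (4.75%), so the order of the livers seen in NR0B2 was shared by many other genes.

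In the regulators of the pathway, 0 of 10 tested in liver were called between the androstenone groups. Their median log2 fold change was -0.13, against 0.01 for all IDs. The 3 with the smallest unadjusted p were all lower in the high group, and 3 of 10 with an unadjusted p under 0.05 compares with 2.93% of all IDs. NR1I3 had 23.9, 26.2, 26.2, 24.8 and 36.3 CPM in the low and 16.5, 12.9, 9.60, 25.0 and 13.5 CPM in the high androstenone livers. High replicate 4, a liver with much CYP7A1, was the only one of the high group inside the range of the low group. Its log2 fold change was -0.83 with an SE of 0.28 (edgeR adjusted p = 0.9998).

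NR1I2 (PXR), the other main xenobiotic receptor and also a bile acid sensor, had 56.5 to 73.0 CPM in the low livers, with a median of 58.4, and 31.7 to 47.7 CPM in the high livers, with a median of 42.6. Its log2 fold change was -0.59 with an SE of 0.23. HNF4A, a hepatocyte transcription factor that activates CYP7A1, had 17.5 to 23.4 CPM in the low livers and 12.0 to 17.4 CPM in the high livers, and its log2 fold change was -0.50 with an SE of 0.23. The edgeR adjusted p was 0.9998 for both, so neither was called. The groups did not overlap for these 2 regulators, as for 0.505% of all IDs tested in liver. When each liver was left out in turn, the log2 fold change stayed between -0.64 and -0.51 for NR1I2, between -0.57 and -0.44 for HNF4A and between -1.06 and -0.69 for NR1I3. NR1H4 had a log2 fold change of 0.46 with an SE of 0.36 (edgeR adjusted p = 0.9998), and FGF19, the ileal hormone that signals bile acid return to the liver, had no count in any of the 20 libraries.

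Of 7 other synthesis genes, 0 were called in liver, and the median log2 fold change was -0.04. CYP39A1, an oxysterol hydroxylase, had -0.36 with an SE of 0.29, AMACR, a racemase of the side chain, 0.31 with an SE of 0.26, and ACOT8, a peroxisomal thioesterase, -0.22 with an SE of 0.24. Of 5 other transport genes tested, 0 were called, all 5 values were negative and the median was -0.22. ABCB1, a drug efflux pump, had -0.46 with an SE of 0.33, ABCC3, a basolateral exporter, -0.24 with an SE of 0.33, and ABCG2, a half-transporter, -0.20 with an SE of 0.31. The edgeR adjusted p was 0.9998 for each of these 6. The lists of marker genes had no call in liver either. All 7 hepatocyte markers had small negative values, from -0.48 to -0.10, but the sign of some turned when 1 liver was left out (up to 0.35). Of the acute phase and stress IDs, 4 of 7 had an unadjusted p under 0.05, against 2.93% of all IDs. BTG3 accounted for 2 of these 4 IDs and CDKN1A for 1. The study had listed both genes as differentially expressed in the same livers, so the count is not independent of these data. The acute phase genes HP, CRP and ITIH4 had unadjusted p-values of 0.9295, 0.7406 and 0.5216 in edgeR. BTG3 and CDKN1A stood apart in high replicate 3, the liver with the least CYP7A1 and ABCB11 and the most NR0B2. CDKN1A had 188 CPM there and BTG3 had 480.1 and 478 CPM. Without that liver the log2 fold change in the liver comparison was -1.64 for CYP7A1, -0.31 for NR0B2 and -0.01 for ABCB11. The other of the 4 was HAMP, the iron hormone hepcidin, at 0.177 ± 0.279 CPM (SD, n = 5) in the low group, about the counting floor, and 26.6 ± 38.3 CPM (SD, n = 5) in the high group, with an edgeR adjusted p of 0.9998. Medians were 0.17 for 4 cholangiocyte markers, 0.24 for 12 blood and leukocyte IDs and -0.90 for 6 testis cell markers. Beyond the relations over the livers given above, the part of these lists in the values of the 3 genes was not tested.

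**Figure D4:**
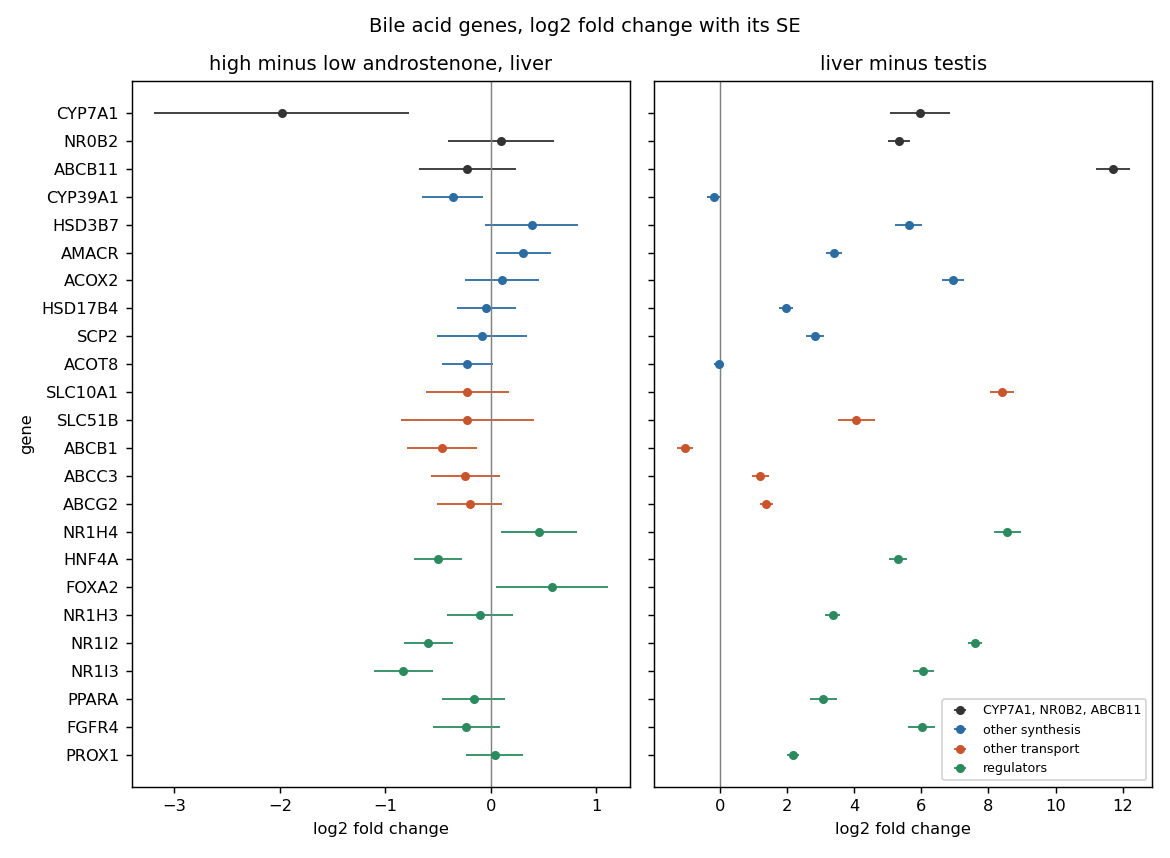
Log2 fold change (horizontal axis) with its SE for CYP7A1, NR0B2, ABCB11 and other genes of bile acid synthesis, transport and regulation, high minus low androstenone in liver (left) and liver minus testis (right). FOXA2 is left out on the right because it had no count in testis. CYP7A1 has the widest SE in liver (1.21), and all regulators shown lie above 0 on the right.

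Testis held little of these genes. NR0B2 was the best covered, with 6.44, 5.52, 5.81, 4.81 and 7.06 CPM in the low and 6.03, 6.05, 6.91, 7.91 and 6.56 CPM in the high androstenone testes, a 1.65-fold range over the 10 samples against 11.4-fold in liver. The groups overlapped. Its log2 fold change, high minus low, was 0.17 with an SE of 0.19 (edgeR adjusted p = 0.7988), and the exact permutation p was 0.167. CYP7A1 had 33 counts over the 10 testes, between 0 and 9 in each, and 6 of them were at or under 3 counts. Its log2 fold change was 0.73 with an SE of 0.64 (edgeR adjusted p = 0.7284). ABCB11 had 9 counts in all, with 5 testes at 0 and 9 at or under 3 counts, so a difference was not detectable at this depth. In testis 0% of the 18340 IDs tested were called, and 9.49% had an unadjusted p under 0.05. The blood and leukocyte IDs, 12 IDs of 6 genes, summed to 181 to 1548 CPM in the low and 81.9 to 236 CPM in the high androstenone testes. In edgeR, 10 of the 12 had an unadjusted p under 0.05. These were PTPRC and the hemoglobin IDs, many of them entries of the same gene, HBA2, while CD14 and LYZ did not pass. The study had listed HBB, HBD and HBA2 as lower in high androstenone testis from the same samples. The part of these IDs in the testis values was not tested. None of the other pathway genes was called in testis. Among 7 synthesis genes, HSD17B4, a peroxisomal enzyme of side chain shortening, had a log2 fold change of 0.60 (SE 0.23), AMACR 0.85 (SE 0.34) and SCP2 -0.22 (SE 0.18). The first pair had unadjusted p-values of 0.0214 and 0.02336 in edgeR, and adjusted they were 0.4463 and 0.4524. Among 4 transport genes, ABCG2 had -0.11 (SE 0.22), ABCB1 0.11 (SE 0.31) and ABCC3 0.07 (SE 0.32). Among 9 regulators, FGFR4, the hepatic receptor of FGF19, had -1.66 (SE 0.94), NR1I2 0.64 (SE 0.43) and NR1H4 -0.91 (SE 0.73), each at a mean under 1 CPM in both testis groups.

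The interaction of tissue and androstenone, liver minus testis, was -2.91 with an SE of 1.86 for CYP7A1 and -0.12 with an SE of 0.57 for NR0B2 (edgeR adjusted p = 1 for both). No value is given for ABCB11, whose testis counts allowed no difference to be measured. Of 19065 IDs tested, 0% were called for the interaction, and 4.67% had an unadjusted p under 0.05. Of the regulators, NR1I2 had an interaction of -1.30 (SE 0.40, unadjusted p = 0.003305, edgeR adjusted p = 0.9895), NR1I3 -1.22 (SE 0.60) and NR1H4 1.28 (SE 0.78). The synthesis genes with the smallest p were HSD17B4 at -0.74 (SE 0.39), CYP39A1 at -0.74 (SE 0.41) and AMACR at -0.65 (SE 0.43). The transport genes were ABCB1 at -0.67 (SE 0.49), ABCC3 at -0.37 (SE 0.49) and SLC10A1 at -0.28 (SE 0.54). The edgeR adjusted p was 1 for these apart from NR1I2.

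Between the tissues all 3 genes were higher in liver and passed the test. Of all IDs, 32.2% were called higher in liver and 43.5% higher in testis, and the median log2 fold change was -0.31. The log2 fold change, liver minus testis, was 11.70 for ABCB11 (SE 0.51, edgeR adjusted p = 9.50e-17), 5.97 for CYP7A1 (SE 0.89, edgeR adjusted p = 1.34e-06) and 5.33 for NR0B2 (SE 0.33, edgeR adjusted p = 1.54e-13). Scaled by total counts only, they were 10.82, 4.99 and 4.31, the median of all IDs was then -1.28, and the split was 18.8% higher in liver and 59.5% higher in testis. On that scale the 10 summed testis libraries held 0.0855 CPM of ABCB11 (exact 95% binomial interval 0.0391 to 0.162), so the size of its fold rests on 9 counts, and it passed the filter through its liver counts. Every liver was above every testis for NR0B2 and ABCB11. For CYP7A1 9 of 10 livers were when scaled by total counts. High replicate 3 fell inside the range of the testes, at 0.149 CPM against at most 0.563 CPM. Low replicate 3, with 5 counts, was barely above it at 0.582 CPM (exact 95% binomial interval 0.189 to 1.36). Normalised by TMM within a tissue, low replicate 3 had 0.539 CPM, below the highest testis at 0.560 CPM. The intervals of high replicates 2 and 5, with 5 counts each, also reached below 0.563 CPM.

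All 10 regulators tested were called higher in liver, with a median log2 fold change of 6.04, also with FOXA2 set at its bound. The same held for 7 of 7 hepatocyte markers (median 12.66) and 7 of 7 acute phase and stress IDs (median 6.74). It also held for 12 of 12 blood and leukocyte IDs (median 4.92), which belong to 6 genes. Of 4 cholangiocyte markers 2 were higher and 2 lower (median -0.35), and of 7 testis cell markers 5 were lower and 0 higher (median -7.15). NR1H4 had 8.56 (SE 0.40). FOXA2, a factor of liver development, had no count in 10 testis libraries, passed the filter through liver alone, and was at least 913-fold higher in liver, taking 3 counts over the testis libraries together as the floor and scaling by total counts. Of 7 synthesis genes 5 were called higher in liver and 0 lower. ACOX2, the branched-chain acyl-CoA oxidase, led with 6.94 (SE 0.33), followed by HSD3B7 with 5.63 (SE 0.40) and AMACR with 3.40 (SE 0.23). CYP39A1 and ACOT8 had -0.18 and -0.01 and were not called, and scaled by total counts only both were called lower in liver, at -1.20 and -0.99. Of 5 transport genes, 4 were called higher and 1 lower. SLC10A1 (NTCP), which takes bile acids up from the blood, had 8.41 (SE 0.35), and SLC51B, a subunit of the basolateral bile acid exporter, had 4.06 (SE 0.55) at a mean of 0.406 CPM in liver, near the counting floor. ABCG2 had 1.39 (SE 0.20), while ABCB1 was lower in liver, at -1.04 (SE 0.24). ABCG2 and ABCC3 were no longer called when scaled by total counts only, at 0.37 and 0.24. The edgeR adjusted p of the called genes named here was at most 4.54e-04.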

How the data were processed

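RNA of testis and liver was sequenced from 5 low and 5 high androstenone samples per tissue. The authors processed reads with CASAVA 1.7 (the submitters' processing notes also name BWA and SAMtools), aligned them with BWA to RefSeq mRNA and UniGene sequences of Sscrofa 9.2, and deposited raw read counts per reference ID without normalization. How reads fitting several sequences were counted is not given in the sources used here, nor is strand. Of 21785 lines per sample, 10 IDs were listed 4 times and used once. Symbols came from a RefSeq gene table of Sscrofa11.1, used for names only, and the study's ID list.

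Counts were tested with edgeR 4.0.16 in R 4.3.3 (TMM, quasi-likelihood test, at least 10 summed counts). SEs are the absolute log2 fold change over the square root of F. DESeq2 1.42.0, RLE, total counts only, other filters, a trended dispersion, a depth covariate, a replicate block and leaving out samples were alternatives. Exact permutation tests and correlations used Python 3.11.15, numpy 2.4.6 and scipy 1.17.1, and figures matplotlib 3.10.9. The scripts were tested on simulated data. The total count per sample sets the precision given with each floor. The p-values of the quasi-likelihood and exact tests weigh a difference against the spread between these samples. Between tissues they treat the 20 samples as independent. The likelihood ratio test leaves out the spread of the gene itself, and the p-values of r and rho are for association over the livers.

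The genes and lists were chosen with earlier results of these data known. Named were the matched genes, from each other pathway list per comparison the 3 largest called changes or, where none was called, the 3 smallest unadjusted p, and the 3 IDs most like each gene over the livers. The rule also covers the marker lists, which are given here as counts, medians and sums. 1 gene is not reported here. Other genes named (NR1H4, FGF19, HSD3B7, SCP2 and NR1I3 beside the correlations, HAMP, CDKN1A, BTG3, CYP39A1, ACOT8 and ABCC3 between tissues) were chosen after their values were seen, as were the depth-regressed correlations, the share of all IDs related to each gene and the per-list scalings.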

Additional observations from a re-analysis of the deposited data

Results flagged for a closer look

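CYP7A1 in liver high replicate 4, at 22.1 CPM, lay far from the other high androstenone livers, its gap to the next sample being 0.886 of the range of the group (Dixon's test for 5 samples, above the 95% critical value). It was 1 of 12 groups of 5 samples examined, 3 genes in 4 groups. Chance flags about 1 in 20 groups only where values are normally distributed. The test used CPM, on which CYP7A1 was strongly uneven between livers. That rate need not hold here, and the flag may depend on the scale. The same liver was highest of its group for ABCB11 and lowest for NR0B2.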

How the results depend on the processing

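The counts of called genes depended on the tool: the quasi-likelihood test called 0 in liver, 0 in testis and 0 for the interaction, DESeq2 called 7, 119 and 1, and the likelihood ratio test with trended dispersion called 45 in liver and 225 in testis. Leaving out 1 sample gave 0 in liver, 0 to 2 in testis, 0 for the interaction and 14270 to 14434 between tissues (14436 with all samples). NR0B2 in liver turned to -0.01 (log2 fold change) with total counts only. Leaving out 1 sample, it ranged from -0.31 to 0.36, ABCB11 in liver from -0.64 to 0.13, and the NR0B2 interaction from -0.56 to 0.10. The mean log2 difference of the exact tests ranged from -0.29 to 0.48 for NR0B2 in liver and from -0.07 to 0.10 for ABCB11 in testis. The r of CYP7A1 with NR0B2 ranged from -0.94 to -0.48. The cause was not tested. Of 471 values under an alternative, 453 kept direction and side of the threshold (counts within 1.5 times).

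Same-numbered samples did not deviate together in every pair (r from -0.40 to 0.52 in liver, -0.04 to 0.26 in testis, -0.05 to 0.19 and -0.07 to 0.48 between tissues in the low and high groups), and of 5 pairs per tissue 1 correlated best with its own number. Between tissues, 8 of 10 same-numbered pairs had r over 0.1 and 3 of 10 were best with their own number. Both tissues came from the same boars, but whether a number marks 1 boar is not stated in the sources used here. With the replicate number as a block, 0 genes were called in liver, 0 in testis, 0 for the interaction and 14201 between tissues. Within a tissue this block joined same-numbered low and high samples, which are different boars, so it was not a block by boar. Across tissues it joined samples of the same androstenone group and number. The block gave log2 fold changes in liver of -1.96 for CYP7A1, 0.16 for NR0B2 and -0.31 for ABCB11, and between tissues of 4.84, 5.12 and 11.54 in the same order, with no call of these changed. Depth limits ABCB11 and CYP7A1 in testis and CYP7A1 in the 4 livers with 4 or 5 counts.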
